A study of Mus musculus with 20 samples.

Results

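The genes described here encode the subunits of voltage-gated sodium channels (Scn) and voltage-gated calcium channels (Cacn) in the frontal cortex of mice with a mutated Tardbp gene. They were chosen by name, as the rows of the deposited count table whose symbol is Scn with a number and an a or b, or begins with Cacna, Cacnb or Cacng, with a mean of at least 0.1 CPM (counts scaled to the library total) over the libraries. Of 25965 rows, 40 had such a name and 36 reached that level. The choice used the mean over all genotypes and no difference between them. All 36 were among the 16690 genes with enough counts to be tested. The sodium channel gene Scn2a is listed as Scn2a1 and so falls outside the name rule, and its values are given where they bear on a result.

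Tardbp encodes TDP-43, an RNA-binding protein that is found in deposits in amyotrophic lateral sclerosis and frontotemporal dementia. The mice were C57BL/6, aged 5 months, and carried the Q331K change of TDP-43 as a knock-in at the mouse's own gene. Frontal cortex RNA was sequenced from 6 wild-type samples (+/+), 6 heterozygous samples with 1 Q331K allele and 8 homozygous samples with 2. The labels name no treatment, give no sex and do not say which samples share an animal or litter, so each p-value reflects only how far these samples spread, which may be technical.

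Voltage-gated sodium channels start and carry the action potential. Each consists of a large alpha subunit that forms the pore and smaller beta subunits that tune its gating and anchor it in the membrane. Voltage-gated calcium channels turn the action potential into calcium entry, which releases transmitter at the nerve terminal and shapes firing in the cell body and dendrites. Their pore-forming alpha1 subunits are accompanied by alpha2delta subunits, which help channels to the surface, by beta subunits inside the cell, and by gamma subunits, most of which in brain act as transmembrane AMPA receptor regulatory proteins (TARPs) and carry glutamate receptors to synapses.

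Library totals ran from 61282647 to 111440766 counts, and the 36 genes took a similar share of them at each genotype, 0.452 ± 0.00668% (SD) over the 6 wild-type libraries, 0.456 ± 0.0107% over the 6 heterozygous and 0.458 ± 0.0138% over the 8 homozygous ones. The SD of a group is over these numbers of libraries throughout. The edited gene, Tardbp, was at 218 ± 5.53 CPM in wild type, 230 ± 7.58 CPM in heterozygotes and 245.5 ± 10.5 CPM in homozygotes. Defining markers of cortex were present in each library, with Slc17a7, the vesicular glutamate transporter of excitatory neurons, at 1296 to 1493 CPM and Gad1, which makes GABA, at 287 to 343 CPM. Some libraries held more RNA of neighbouring structures than the rest, measured as the mean z score of log2 CPM over a list of markers. The heterozygous replicate 1 had a striatal score of 3.36, homozygous replicates 2, 5 and 8 had olfactory bulb scores of 1.24, 1.82 and 2.19, and ependymal scores of 1.26 to 2.17 were found in homozygous replicates 1, 2 and 4 and 1.39 in heterozygous replicate 2. Other marker lists varied too. Homozygous replicate 2 scored 1.96 for astrocytes, 1.85 for meninges, 1.82 for choroid plexus and -1.49 for excitatory neurons. Oligodendrocyte scores ran from -2.16 in homozygous replicate 8 to 1.83 in heterozygous replicate 2. In bulk tissue, fewer cells of a type and less RNA per cell cannot be told apart.

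The channel genes spanned a wide range of levels, which can be compared between genes only per length of exon. Scn8a, the pore of the Nav1.6 channel of the axon initial segment and nodes, was the highest of the sodium channel pores at 31.8 CPM per kb of exon. It was followed by Scn1a (Nav1.1), a channel of inhibitory neurons among others, at 20.9 CPM per kb. Scn2a1 lay between them at 30.1 CPM per kb. Scn3a, the Nav1.3 gene best known from the developing brain, stood at 3.77 CPM per kb. Scn7a, a sodium sensor rather than a classical voltage-gated channel, stood at 0.746 CPM per kb. The sensory neuron genes Scn9a and Scn10a were low, at 0.152 and 0.084 CPM per kb. Among the pores named, the main channels of adult central neurons thus lay above 20 CPM per kb and those best known from sensory ganglia under 0.2.

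Among the sodium channel beta subunits, Scn2b was at 60.5 CPM per kb, Scn4b at 27.0 and Scn3b at 20.2. Of the calcium channel pores of transmitter release, Cacna1a (P/Q-type) was at 21.5, Cacna1b (N-type) at 16.6 and Cacna1e (R-type) at 10.04 CPM per kb. Their order depends on the length used. Not divided by length they were at 245, 165 and 253 CPM, and their merged exons total 11.4, 9.94 and 25.2 kb. The T-type pores, which open near the resting potential and support burst firing, were at 14.3 CPM per kb for Cacna1i, 12.9 for Cacna1g and 5.88 for Cacna1h. L-type pores couple activity to gene expression. Of these, Cacna1d stood at 6.03 and Cacna1c at 2.55 CPM per kb, while Cacna1s, the skeletal muscle form, stood at 0.0994 and Cacna1f, the retinal form, at 0.0359, the lowest of the 36. Of the accessory calcium channel subunits, Cacng7 was the highest gamma subunit at 97.6 CPM per kb, Cacnb3 the highest beta subunit at 71.7 and Cacna2d1 the highest alpha2delta subunit at 18.6.

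**Figure D1:**
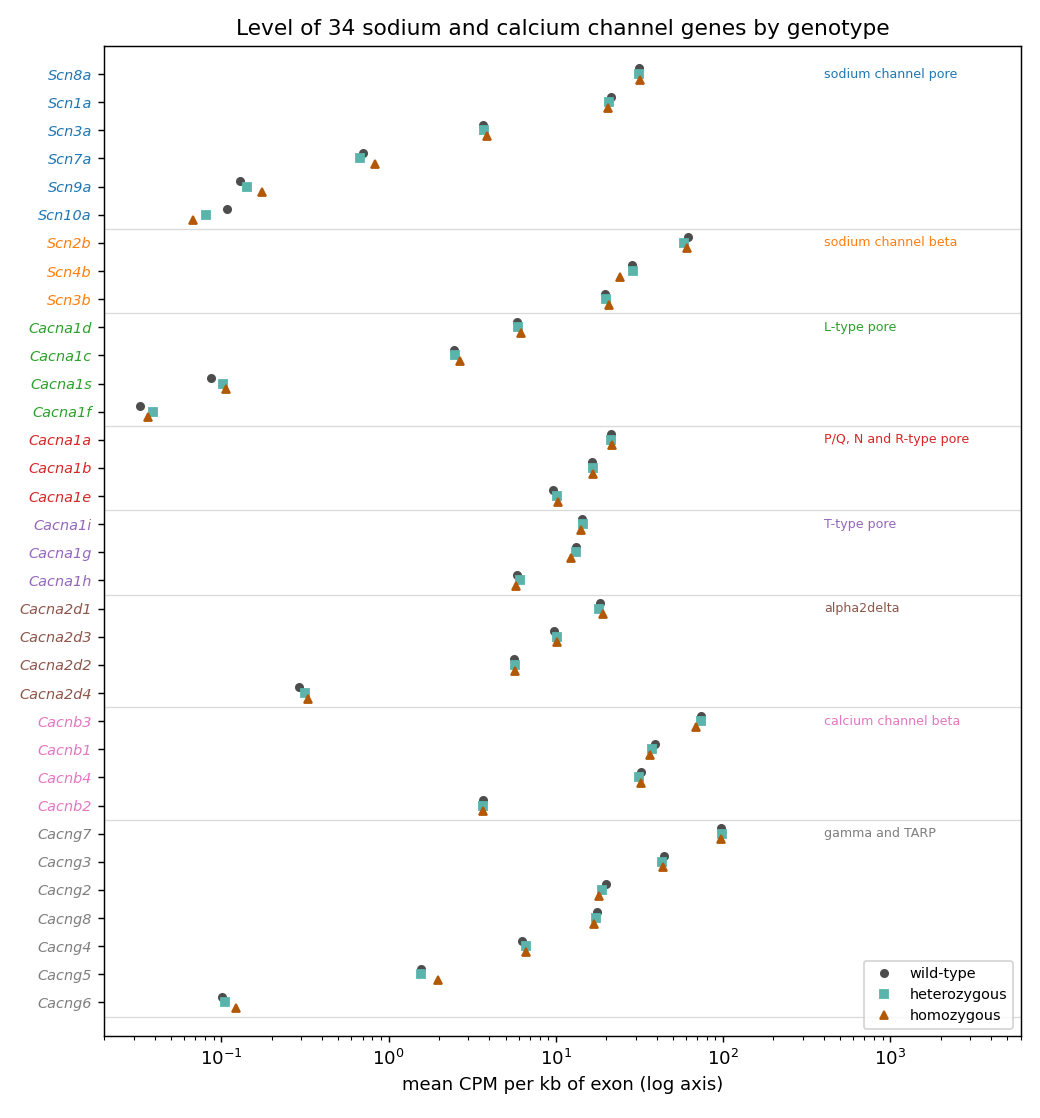
Mean level of 34 channel genes in CPM per kb of exon (log axis) in wild-type (6 libraries, circles), heterozygous (6, squares) and homozygous (8, triangles) samples, with genes grouped by the role of the subunit. The symbols of the 3 genotypes nearly coincide for most genes and stand apart most for the low gene Scn10a.

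The lowest members were close to the level rule. Cacng6, a gamma subunit, had a mean of 0.218 CPM with 9 to 28 counts per library, and Cacna1f had 0.327 CPM with 5 to 43 counts. The rows just outside the rule were Scn11a, a sensory neuron channel, at 0.0722 CPM, Cacng1, a skeletal muscle subunit, at 0.0272 CPM, and both rows of the skeletal muscle channel gene Scn4a, at 0.0199 and 0 CPM. None of these held more than 14 counts in a library.

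TDP-43 is known to bind runs of UG in RNA, so the annotated protein-coding transcripts of each channel gene were searched for TG repeated 6 times or more (TGTGTGTGTGTG, sense strand only; GENCODE M21, GRCm38). Of the 36 genes, 5 (13.9%) held such a run, as did 1255 of 15252 tested protein-coding genes (8.23%), shares that were not adjusted for transcript length. The runs of 4 of them are shown because they are the stretches in which these transcripts carry the repeat, with the repeat in capitals. They lie in the 3' untranslated region for Scn8a (bases 10652 to 10667 of the transcript), Cacna1c (9837 to 9850) and Scn3b (4049 to 4060), and in the 5' untranslated region for Scn1a (23 to 38).
Scn8a: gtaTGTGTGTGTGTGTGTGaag
Scn1a: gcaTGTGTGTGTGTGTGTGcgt
Cacna1c: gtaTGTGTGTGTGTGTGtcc
Scn3b: gcaTGTGTGTGTGTGcgc
The fifth gene, Cacna1b, held 22 repeats in its 3' untranslated region (bases 8504 to 8547). Of the other members, 26 had a longest run of 3 to 5 repeats and 5 had none of 3 or more. A match describes the letters of an annotated transcript and was not tested as a binding site. Introns were not searched.

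Between homozygotes and wild type few channel genes were called, although the changes of the members were somewhat larger than those of all genes. By edgeR's quasi-likelihood test with Benjamini-Hochberg adjustment over all genes tested, 1 of 36 was called at an adjusted p under 0.05, and it was lowered (0.923% of all genes tested were called lowered). None was called raised (0.641% of all genes), and over both directions 1.56% of all genes were called. At an unadjusted p under 0.05, 6 of the 36 were higher (8.05% of all genes) and 5 lower (8.06% of all genes). Together they were 11 of 36 (16.1% of all genes). Apart from the share called raised, each of these shares was larger among the members than among all genes, a difference that was not tested. The median log2 change was 0.014 over the members and 0.0013 over all genes. Of the members, 22 of 36 were positive (8438 of 16690 genes) and 23 of 36 lay within 0.1 of 0 (11446 of 16690 genes). The median size of change regardless of sign was 0.083 for the members and 0.058 for all genes. Homozygous and wild-type libraries overlapped in their ranges for each of the 36 genes, while 0.779% of all genes tested had ranges that did not overlap.

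**Figure D2:**
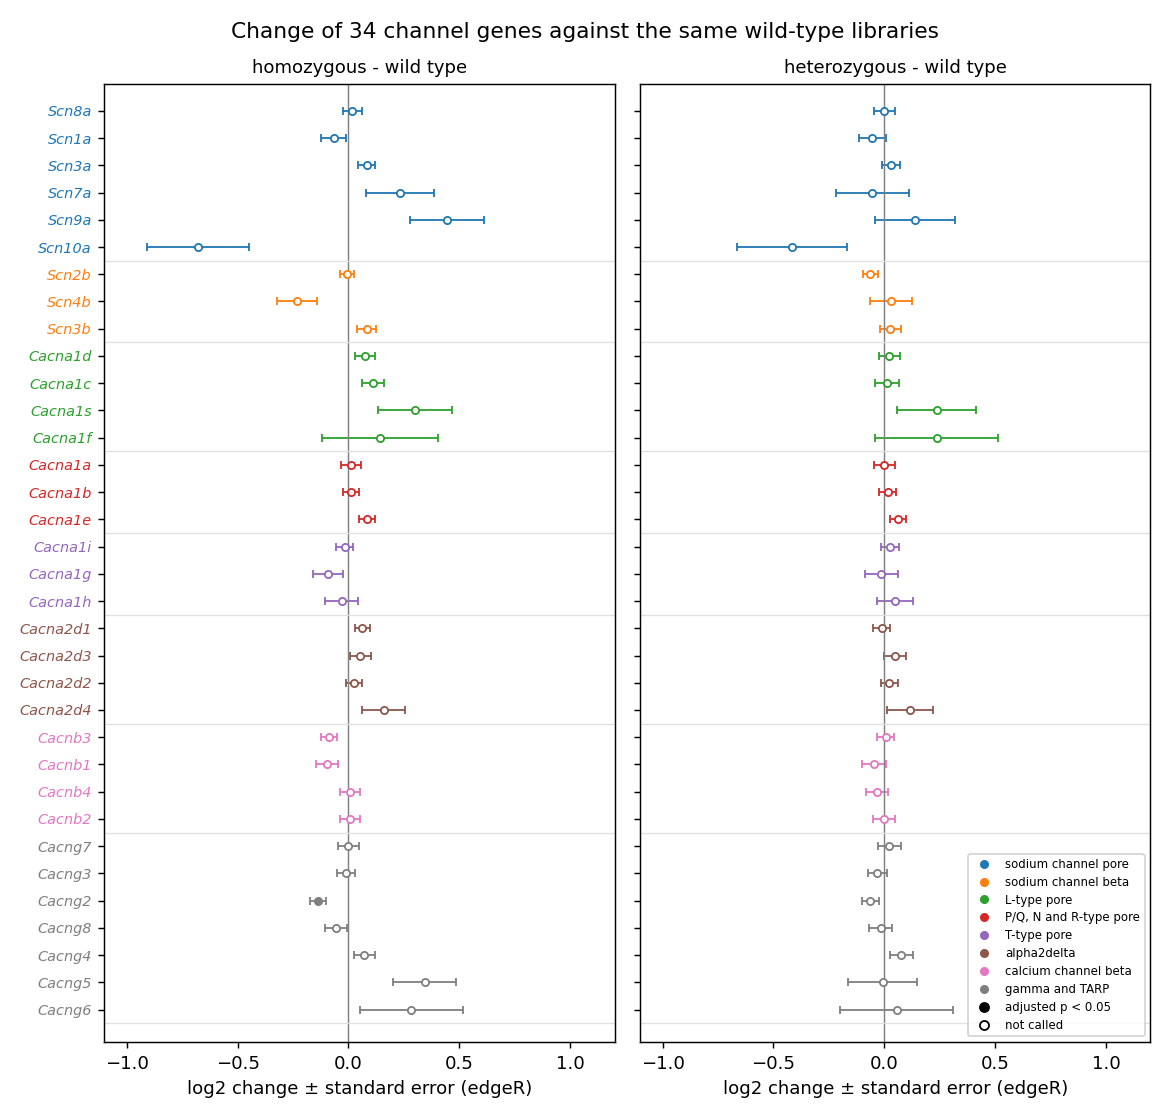
Log2 change ± standard error of 34 channel genes by edgeR, in homozygous against wild-type libraries (left) and heterozygous against the same wild-type libraries (right), coloured by subunit role. Only Cacng2, at -0.14 on the left, has a filled symbol for an adjusted p under 0.05. The wide bars belong to low genes such as Scn10a (-0.68).

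Cacng2 was the member called. It encodes stargazin, the TARP gamma-2, which delivers AMPA receptors to the synapse, and lies on the minus strand of chromosome 15 (GRCm38, bases 77991748 to 78120028). Wild-type libraries held a lowest, median and highest level of 100.5, 109 and 119 CPM, heterozygotes 101, 104 and 109 CPM, and homozygotes 94.1, 98.6 and 109 CPM. The ranges overlapped, with 6 of 8 homozygous libraries under the lowest wild-type one. Means and SDs were 109 ± 6.40 CPM for wild type (n = 6), 104 ± 2.78 CPM for heterozygotes (n = 6) and 99.3 ± 5.00 CPM for homozygotes (n = 8). In homozygotes Cacng2 fell by 0.14 (log2, standard error 0.036, edgeR adjusted p = 0.0483; two-sided exact permutation p = 0.00666). Cacng2 was likewise the single member called in the trend over 0, 1 and 2 alleles, with a slope of -0.07 log2 units per allele (edgeR, adjusted p = 0.0383). In that trend 1.05% of all genes were called lowered and 1.83% in either direction. The heterozygous difference from wild type, -0.06, did not pass (edgeR adjusted p = 0.9996).

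The Cacng2 call lay at the edge of the threshold. It was lost in 14 of the 20 fits that left out 1 library (wild-type replicates 1, 3, 5 and 6, heterozygous replicates 1, 2, 4 and 5, and homozygous replicates 1, 2, 3, 5, 6 and 8), at log2 changes of -0.14 to -0.11 and edgeR adjusted p of 0.0514 to 0.121. Fits without the libraries of a high score held fewer homozygous libraries. Without the libraries of olfactory bulb score over 1 the change was -0.11 (edgeR adjusted p = 0.224). Without those of ependymal score over 1 it was -0.12 (edgeR adjusted p = 0.125). With the ependymal, striatal and olfactory bulb scores as covariates, below called tissue scores, it was -0.10 (edgeR adjusted p = 0.18). The antisense gene A730060N03Rik overlaps an exon of Cacng2 on the plus strand. Its levels were 3.03 to 3.79 CPM in wild type and 3.55 to 4.71 CPM in homozygotes, a log2 difference of 0.31 (edgeR, adjusted p = 0.0586). Whether the counting used strand is not known, and reads of this pair may be shared. Across the 20 libraries with genotype means removed, the genes with the pattern most like that of Cacng2 were Ephb2 (Pearson r = 0.915), 3110082I17Rik (r = 0.878) and Sik3 (r = 0.872), given as a description.

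The rest of the gamma family gave no call. Cacng3 (TARP gamma-3) was at 123, 120.3 and 122 CPM in wild type, heterozygotes and homozygotes. Cacng7, an atypical TARP and the highest of the family, had a lowest, median and highest level of 220.5, 231 and 267 CPM in wild type, 226, 236 and 266 CPM in heterozygotes and 212, 242 and 249 CPM in homozygotes. Its ranges overlapped almost fully, and its log2 change in homozygotes was -0.0003 ± 0.047 (SE, edgeR adjusted p = 0.999; exact permutation p = 0.981). Cacng8 (gamma-8), a TARP best known from hippocampus, had means of 41.4, 40.9 and 39.8 CPM, and its exons hold a predicted microRNA gene on the same strand. Cacng4 (gamma-4) had means of 22.5, 23.8 and 23.7 CPM. The low gene Cacng6 had means of 0.198, 0.207 and 0.242 CPM.

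Cacng5, which encodes the atypical TARP gamma-5, was highest in the libraries with the highest olfactory bulb scores. Its lowest, median and highest levels were 5.35, 5.79 and 7.25 CPM in wild type, 5.36, 5.94 and 6.80 CPM in heterozygotes and 5.57, 6.92 and 10.98 CPM in homozygotes. The 3 highest values, 8.82, 10.1 and 10.98 CPM, were those of homozygous replicates 2, 5 and 8, the libraries with the 3 highest olfactory bulb scores. The other 5 homozygous libraries lay between 5.57 and 7.86 CPM. The log2 change over all libraries was 0.34 ± 0.144 (SE, edgeR adjusted p = 0.24). The summed level of the 6 olfactory bulb markers was 8.82 to 22.1 CPM in wild type, 8.81 to 13.6 CPM in heterozygotes and 8.49 to 80.9 CPM in homozygotes, with Eomes and Slc6a3 at 0 in some library. Their part in the result was not tested.

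**Figure D3:**
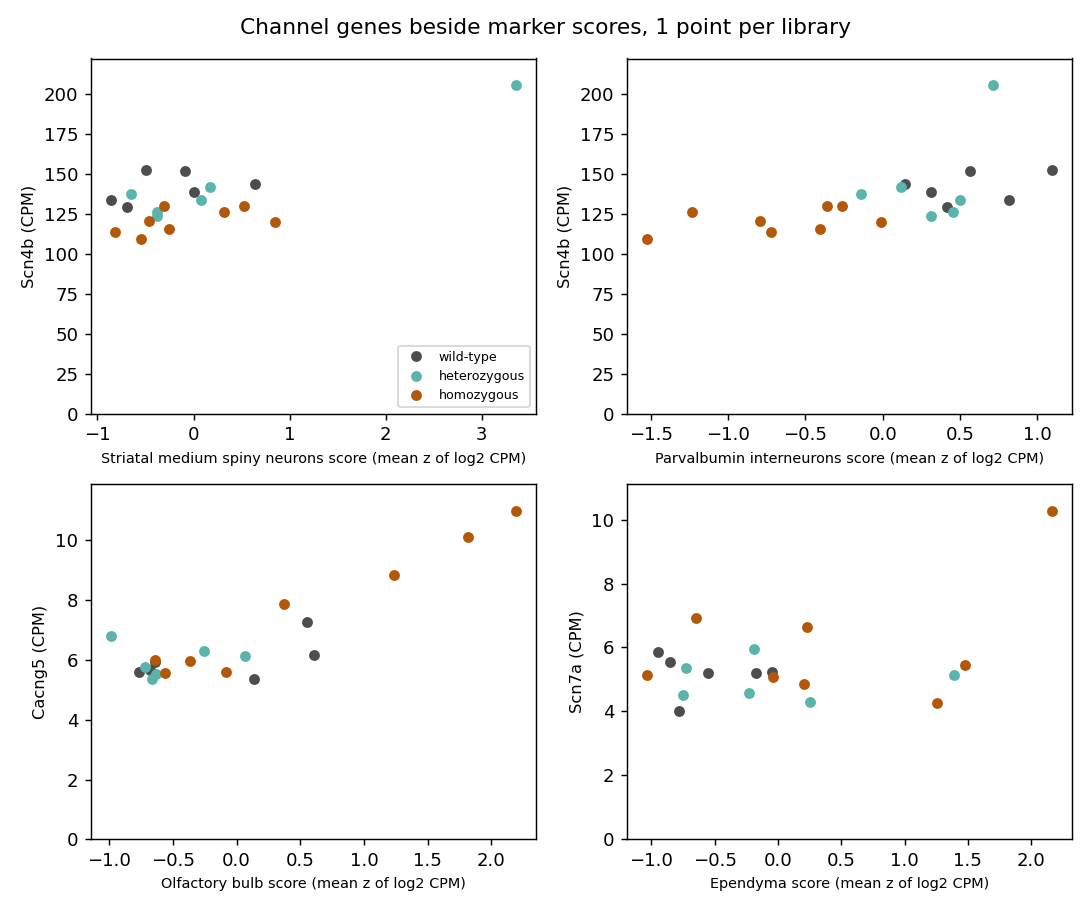
Level of Scn4b, Cacng5 and Scn7a in each of the 20 libraries (vertical axis, CPM) against the marker score of the same library (horizontal axis, mean z score of log2 CPM), coloured by genotype. The single library at a striatal score of 3.36 has the highest Scn4b value, 206 CPM. The 3 libraries of highest olfactory bulb score have the 3 highest Cacng5 values. The library of highest ependymal score has the highest Scn7a value, 10.3 CPM, while the other libraries of ependymal score over 1 lie at 4.28 to 5.44 CPM.

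Among the sodium channel beta subunits, Scn4b was lower in homozygotes without passing the adjusted threshold. Scn4b encodes the beta-4 subunit, which is linked to resurgent sodium current in fast-firing neurons and is abundant in striatal medium spiny neurons. Its lowest, median and highest levels were 129.6, 141 and 152 CPM in wild type, 124, 136 and 206 CPM in heterozygotes and 109.6, 120.3 and 130.2 CPM in homozygotes. Of 8 homozygous libraries, 6 lay under the lowest wild-type library and 8 under the wild-type median. The heterozygous range was set by replicate 1, at 206 CPM, while the other 5 heterozygous libraries ended at 142 CPM. Means and SDs were 142 ± 9.41 CPM for wild type (n = 6), 145 ± 30.6 CPM for heterozygotes (n = 6) and 121 ± 7.67 CPM for homozygotes (n = 8).

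The log2 change of Scn4b in homozygotes was -0.23 ± 0.089 (standard error), which did not pass adjustment (edgeR adjusted p = 0.203; exact permutation p = 0.00133 over the homozygous and wild-type libraries alone). Without heterozygous replicate 1, the library of high striatal score, the same change of -0.23 was called (edgeR adjusted p = 0.00993). It was also called in a fit of only the homozygous and wild-type libraries, at -0.23 (adjusted p = 0.0178, edgeR). With the ependymal, striatal and olfactory bulb scores as covariates it was called at -0.17 (adjusted p = 0.0471, edgeR). Without the olfactory bulb rich libraries, all of them homozygous, it was -0.18 (adjusted p = 0.463, edgeR). Most alternatives gave no call of Scn4b. It was not called in 7 of 9 other settings, such as DESeq2 (adjusted p = 0.189) and the replicate block (adjusted p = 0.16, edgeR). Of the 20 fits that left out 1 library, 19 did not call it. The 8 striatal markers in the table summed to 203 to 270.2 CPM in wild type, 213 to 533 CPM in heterozygotes and 208 to 283 CPM in homozygotes, with none at 0.

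Markers of parvalbumin interneurons, a fast-firing inhibitory class, were lower in the same libraries. Their 8 genes summed to 709 to 779.5 CPM in wild type, 692 to 732 CPM in heterozygotes and 609.6 to 682 CPM in homozygotes, with none at 0, and the homozygous range lay wholly under the wild-type one. Tac1 stands in this list and in the striatal one. Of the 8, 4 were called lower in homozygotes by edgeR (Pvalb, Syt2, Vamp1 and Cox6a2; 0.923% of all genes were called lower) and 0 higher. Pvalb itself was at 53.6 ± 4.27 CPM in wild type and 42.9 ± 3.40 CPM in homozygotes. The part of these cells in the values of Scn4b was not tested, and their score was not among the covariates.

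Scn2b, which lies 8.37 kb before Scn4b on chromosome 9, had means of 286, 273 and 285 CPM and a log2 change of -0.005 ± 0.031 (SE) in homozygotes. Scn3b had means of 107, 109 and 114 CPM and a change of 0.08 ± 0.044 (SE, edgeR adjusted p = 0.363).

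**Figure D4:**
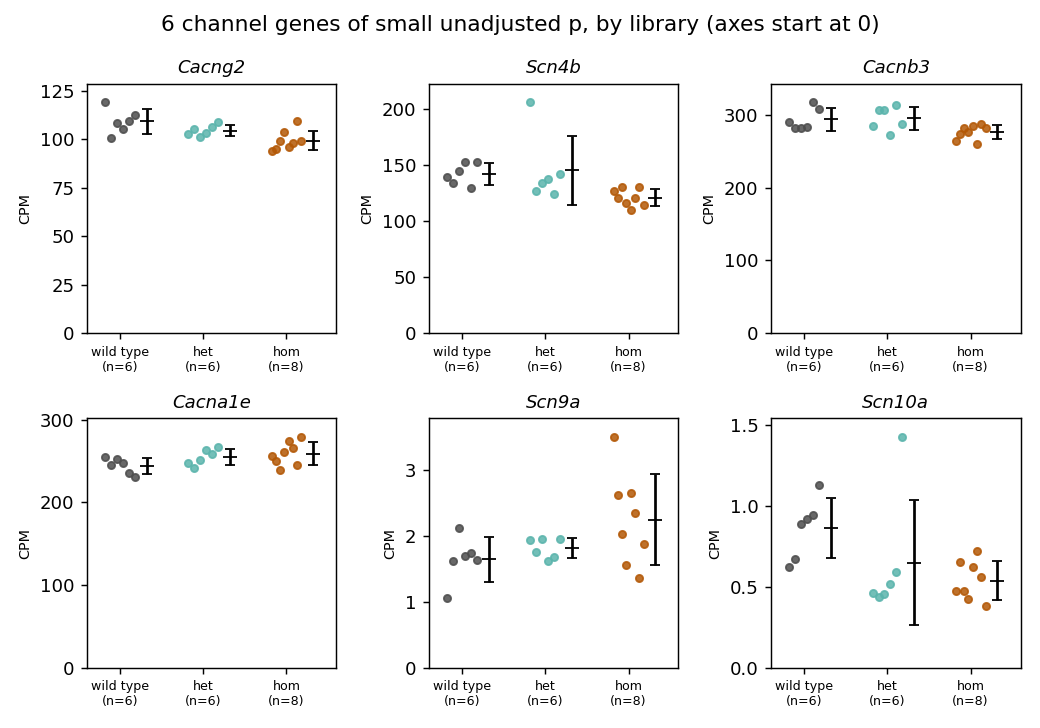
CPM of 6 channel genes in each library (points; 6 wild-type, 6 heterozygous, 8 homozygous), with the group mean and SD beside them (bars) and axes from 0. Homozygous libraries of Cacng2, Scn4b and Scn10a lie mostly under the wild-type ones, with overlap in each panel, and 1 heterozygous library stands apart in Scn4b (206 CPM) and in Scn10a (1.43 CPM).

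The main sodium channel pores of adult brain were near equal across the genotypes. Scn8a had a lowest, median and highest level of 484, 496 and 515 CPM in wild type and 477, 498 and 522 CPM in heterozygotes. In homozygotes these were 437, 495 and 560.3 CPM, the lowest from replicate 2, which had the lowest excitatory neuron score. The homozygous range covered the wild-type one on both sides, and the log2 change was 0.02 ± 0.044 (SE, edgeR adjusted p = 0.885; exact permutation p = 0.812). Scn1a had means of 239 ± 18.8, 231 ± 20.01 and 229 ± 17.1 CPM and a change of -0.07 ± 0.057 (SE, edgeR adjusted p = 0.613). Scn2a1 was at 380 ± 21.8, 369 ± 24.7 and 397 ± 32.1 CPM (edgeR adjusted p = 0.573 in homozygotes). Scn3a was at 45.6 ± 2.51, 46.6 ± 2.05 and 48.3 ± 2.33 CPM, a change of 0.08 (edgeR adjusted p = 0.279) with 7 of 8 homozygous libraries above the wild-type median.

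The scarce sodium channel pores had wider errors. Scn10a (Nav1.8) lies on chromosome 9. Its lowest, median and highest levels were 0.624, 0.904 and 1.13 CPM in wild type, 0.437, 0.491 and 1.43 CPM in heterozygotes and 0.383, 0.517 and 0.721 CPM in homozygotes. All 8 homozygous libraries lay under the wild-type median and 6 under the lowest wild-type library. While 1 heterozygous library, replicate 6, was the highest of all 20, the other heterozygous libraries all lay under the lowest wild-type one, at 0.437 to 0.593 CPM. The log2 change was -0.68 ± 0.231 (SE, edgeR adjusted p = 0.137; exact permutation p = 0.00366). It was called without heterozygous replicate 6 (edgeR adjusted p = 0.0309), which was 1 of the 20 fits that left out 1 library. The other 19 did not call it, nor did any of the 8 other settings that tested it. The gene rested on 29 to 108 counts per library.

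Scn9a (Nav1.7) had a lowest, median and highest level of 1.07, 1.66 and 2.12 CPM in wild type, 1.62, 1.85 and 1.96 CPM in heterozygotes and 1.36, 2.19 and 3.51 CPM in homozygotes. The homozygous range held the highest values, with 4 of 8 libraries above the highest wild-type one, and reached below the wild-type median in 2. The log2 change was 0.44 ± 0.167 (SE, edgeR adjusted p = 0.187; exact permutation p = 0.0776), and with tissue scores as covariates 0.16 (adjusted p = 0.683, edgeR). Exons of Scn9a overlap the antisense gene Gm13629. Scn7a had means of 5.18 ± 0.632, 4.97 ± 0.630 and 6.08 ± 1.92 CPM. Its highest value, 10.3 CPM, was homozygous replicate 1, the library of highest ependymal score. The other libraries of ependymal score over 1 were not high, with homozygous replicates 2 and 4 at 4.28 and 5.44 CPM and heterozygous replicate 2 at 5.155 CPM. The next highest value, 6.92 CPM, was homozygous replicate 6, at an ependymal score of -0.65. The 7 ependymal markers summed to 6.79 to 9.14 CPM in wild type, 7.01 to 16.4 CPM in heterozygotes and 6.59 to 23.8 CPM in homozygotes, with Tmem212 at 0 in some library, and their part was not tested.

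Calcium channel pores gave no call in either direction. Cacna1a, whose channel drives release at most central synapses, had a lowest, median and highest level of 224, 245 and 260.1 CPM in wild type, 225, 250.2 and 253 CPM in heterozygotes and 222, 249 and 268 CPM in homozygotes. The groups overlapped widely, at a log2 change of 0.01 ± 0.044 (SE, edgeR adjusted p = 0.934; exact permutation p = 0.86). Cacna1b was at 164, 165 and 165 CPM. Cacna1e had 231, 246 and 254 CPM in wild type, 242, 255 and 267 CPM in heterozygotes and 239, 258 and 279 CPM in homozygotes as its lowest, median and highest levels. It was above the highest wild-type library in 5 of 8 homozygous ones, with a change of 0.08 ± 0.035 (SE, edgeR adjusted p = 0.228; exact permutation p = 0.0496).

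The 4 L-type pores had positive changes with a median of 0.13 on the log2 scale, and none was called. Cacna1d had 71.6, 73.5 and 78.2 CPM in wild type, 70.8, 74.2 and 81.8 CPM in heterozygotes and 69.4, 77.9 and 86.6 CPM in homozygotes as its lowest, median and highest levels. Homozygotes reached both lower and higher than wild type, and the change was 0.08 ± 0.044 (SE, edgeR adjusted p = 0.426; exact permutation p = 0.179). Cacna1c had means of 52.2, 52.6 and 56.4 CPM and a change of 0.11 (edgeR adjusted p = 0.263). The scarce genes Cacna1s and Cacna1f had means of 0.567, 0.669 and 0.701 CPM, and of 0.295, 0.352 and 0.329 CPM, with standard errors of 0.167 and 0.261 on the log2 change.

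The 3 T-type pores had negative changes with a median of -0.03 and none was called. Cacna1i had 134, 138 and 152 CPM in wild type, 134, 144 and 151 CPM in heterozygotes and 131, 136 and 151 CPM in homozygotes as its lowest, median and highest levels. The groups overlapped over most of their range, at a change of -0.02 ± 0.037 (SE, edgeR adjusted p = 0.865; exact permutation p = 0.665). Cacna1g was at 134, 133 and 126 CPM and Cacna1h at 57.3, 59.2 and 56.0 CPM in wild type, heterozygotes and homozygotes.

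All 4 alpha2delta subunits, of which those of Cacna2d1 and Cacna2d2 bind gabapentin, had positive changes and none was called. Cacna2d1 had 213, 229 and 236 CPM in wild type, 213, 225 and 236 CPM in heterozygotes and 221, 236 and 265 CPM in homozygotes as its lowest, median and highest levels. Of 8 homozygous libraries, 4 exceeded the highest wild-type one, at a change of 0.06 ± 0.036 (SE, edgeR adjusted p = 0.398; exact permutation p = 0.154). Cacna2d3 was at 85.2, 88.1 and 88.4 CPM, Cacna2d2 at 44.4, 45.1 and 45.2 CPM and Cacna2d4 at 2.78, 3.01 and 3.10 CPM.

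The beta subunits bind the pore inside the cell and set how many channels reach the membrane. Cacnb3 had a lowest, median and highest level of 282, 287 and 318 CPM in wild type, 273, 297 and 314 CPM in heterozygotes and 260.1, 279 and 288 CPM in homozygotes. Of 8 homozygous libraries, 7 lay under the wild-type median, at a change of -0.09 ± 0.035 (SE, edgeR adjusted p = 0.212; exact permutation p = 0.0173). Cacnb1 was at 177 ± 12.2, 171 ± 5.90 and 165 ± 15.5 CPM, a change of -0.10 ± 0.051 (SE, edgeR adjusted p = 0.364). Cacnb4 was at 290.1, 284 and 291 CPM and Cacnb2 at 48.3, 48.3 and 48.5 CPM.

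Heterozygotes differed little from wild type. By edgeR, 0 of 36 members were called (0% of all genes) and 0 had an unadjusted p under 0.05 (3.19% of all genes), and DESeq2 called 0. The median log2 change of the members was 0.01 and 30 of 36 lay within 0.1 of 0, against 13201 of 16690 genes. Between homozygotes and heterozygotes edgeR called 0 members (0.108% of all genes) and DESeq2 0, with 2 higher and 4 lower at an unadjusted p under 0.05 (11.0% of all genes in either direction). The lower ones included Scn4b, Cacnb3 and Cacng2, and the 2 higher ones were Cacng5 and Cacna2d1. Heterozygotes were also set against the midpoint of the other genotypes. There edgeR called 0 members (0% of all genes) and DESeq2 0, and 1 member, Scn2b, had an unadjusted p under 0.05 (3.43% of all genes) and was lower in heterozygotes than the midpoint.

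Proteins that anchor or work beside the channels were followed as a list of 68 genes, of which 64 were found in the table. In homozygotes 1 of the 64 was raised (0.641% of all genes) and 1 lowered (0.923% of all genes) by edgeR at an adjusted p under 0.05, and the median log2 change was -0.0073. The 17 genes of the sodium channel anchor and axon initial segment, such as Ank3 and the Fgf homologous factors, gave 0 calls by edgeR and 0 by DESeq2, with 1 gene under an unadjusted p of 0.05 (16.1% of all genes), and all lay within 0.1 of 0. The raised gene was Shisa6, which encodes an AMPA receptor auxiliary protein, at 13.3 ± 0.861 CPM in wild type, 14.9 ± 1.17 CPM in heterozygotes and 15.5 ± 0.605 CPM in homozygotes, a change of 0.22 (edgeR adjusted p = 0.0223). Its 8 homozygous libraries all exceeded the highest wild-type one. The call was lost without wild-type replicate 5 (adjusted p = 0.0704, edgeR) and without wild-type replicate 6 (adjusted p = 0.0624, edgeR).

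The lowered partner was Rims3, a presynaptic active zone protein of a family that binds calcium channel beta subunits. It was at 337 ± 13.6 CPM in wild type, 324 ± 8.76 CPM in heterozygotes and 307 ± 14.8 CPM in homozygotes, and homozygotes were lower by a log2 change of -0.13 (edgeR, adjusted p = 0.0359), with 8 of 8 homozygous libraries under the wild-type median. The call was lost without wild-type replicates 1, 5 or 6 or homozygous replicates 1, 3, 5 or 6, at adjusted p of 0.0506 to 0.108 by edgeR. With tissue scores as covariates Shisa6 was at 0.17 (adjusted p = 0.0948) and Rims3 at -0.13 (adjusted p = 0.0741), by edgeR. Shisa6 also lost its call without the libraries of ependymal score over 1 (adjusted p = 0.058), and Rims3 in a fit of only the homozygous and wild-type libraries (adjusted p = 0.0681). Without the libraries of olfactory bulb score over 1 neither was called by edgeR (adjusted p = 0.134 for Shisa6 and 0.0949 for Rims3). Within annotated transcripts, introns not searched, the longest run of Cacng2 was 3. Rims3 holds TG repeated 6 times in its 3' untranslated region, at bases 1612 to 1623 of its transcript. It is shown with the repeat in capitals for comparison with the channel genes.
Rims3: ctcTGTGTGTGTGTGtcc
The genes of the 5 longest channel gene runs, Scn8a, Scn1a, Cacna1c, Scn3b and Cacna1b, were not called in any comparison by edgeR. In homozygotes 1 of 36 members was called at all (1.56% of all genes). That is too few to compare genes with and without such a run, and a link to the repeat was not tested.

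The channel genes are long. They lie on 12 chromosomes and span 10.3 to 817 kb, with a median of 110.5 kb, and 19 of 36 span at least 100 kb, as do 13.7% of the genes tested. In homozygotes, 15 of the 19 long members had positive changes, with a median of 0.03 on the log2 scale, beside 1436 of 2283 long genes and a median of 0.02. Of the 17 shorter members 7 were positive, with a median of -0.005, beside 7002 of 14407 and -0.0027. By median change the members lay near other genes of their length. Positive changes were more frequent among long members than among long genes, and less frequent among shorter members than among shorter genes. Neither difference was tested.

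Several members share sequence or position. On chromosome 2, Scn1a, Scn9a and Scn7a follow each other with gaps of 39.2 and 38.5 kb, Scn3a lies 703 kb from Scn1a with Scn2a1 between them, and on chromosome 7 Cacng7, Cacng8 and Cacng6 lie within a run of gaps of 25.9 and 9.06 kb. Of the 50-base words of its transcript, Scn3a shared 6.49% with another channel gene, Scn2a1 included, the largest share among the members, followed by Scn9a with 4.04% and Scn1a with 4.03%. Exons of 10 members overlap a gene on the opposite strand (Cacna1a, Cacna1d, Cacna1h, Cacna1s, Cacna2d2, Cacnb1, Cacnb2, Cacnb4, Cacng2 and Scn9a). The coefficient of variation within genotypes ran from 3.83% for Scn2b to 38.4% for Scn10a. It is the root of the mean variance within genotypes, divided by the mean over the 20 libraries. The Scn10a value includes heterozygous replicate 6, at 1.43 CPM beside 0.593 CPM for the next heterozygous library.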

How the data were processed

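The authors deposited 1 table of raw counts per gene, whole numbers that were not normalised, from 20 frontal cortex libraries. Per the labels' protocols these were stranded polyA libraries. Trim Galore 0.4.3 and HISAT2 2.0.5 are named, with the build GRCm38, in the submitters' processing notes. How reads were assigned to genes and whether strand was used is not given in the sources used here.

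All 20 libraries were fitted together by genotype by the robust quasi-likelihood test of edgeR 4.0.16 (R 4.3.3) after TMM scaling and filterByExpr, which kept 16690 genes, and p-values were adjusted over these. Genes were called at an adjusted p under 0.05. CPM are counts scaled to the library total with TMM factors, and CPM per kb divides by the length of the merged exons in GENCODE M21. Permutation tests were two-sided and exact, on log2 CPM (prior count 2), and 0.000333 is the smallest p they can give for homozygous against wild type. The 56 rows without a gene identifier held at most 0.0835% of a library. The closest pair of 58 within genotypes had a chi-square per degree of freedom of 13.0, so no library was a copy. The scripts were tested on simulated data.

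The rule named each member with its levels and gave full values to members called in any comparison, to the 8 of smallest p in homozygous against wild type and to the highest per kb in each role. Single values of 2 members are not reported here, although counts over the members include them. Cacng5, Scn7a and the leave-one-out examples were singled out after their values were seen. The members and lists were chosen with earlier results of these data known. The other settings tried were DESeq2 1.42.0 itself, edgeR with DESeq2's size factors, all genes unfiltered, at least 1 CPM in 6 libraries, a replicate block, tissue scores as covariates, only the genotypes compared, and each library left out. The tissue scores used as covariates were the ependymal, striatal and olfactory bulb ones, and no other score was included. Fits without libraries of ependymal or olfactory bulb score over 1 were chosen after seeing the data. The olfactory bulb fit dropped homozygous replicates 2, 5 and 8. The ependymal fit dropped homozygous replicates 1, 2 and 4 and heterozygous replicate 2. The part of these smaller groups in the lost calls was not tested. TMM and DESeq2 size factors gave the same calls of members.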

Additional observations from a re-analysis of the deposited data

Results flagged for a closer look

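Of 108 groups of libraries, 1 per gene and genotype, 6 held a library whose distance from the nearest other library was large for the range of its group, and chance gives about 1 in 20 groups. Scn4b was at 206 CPM in heterozygous replicate 1, with the next heterozygous library at 142 CPM, and that library had the striatal score of 3.36. Scn7a was at 10.3 CPM in homozygous replicate 1, with the next at 6.92 CPM, and at 4.00 CPM in wild-type replicate 6, with the next at 5.20 CPM. Cacnb4 was at 333 CPM in homozygous replicate 6, with the next at 296 CPM. Scn2b was at 261 CPM in homozygous replicate 2, with the next at 282 CPM. Scn10a was at 1.43 CPM in heterozygous replicate 6, with the next at 0.593 CPM.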

How the results depend on the processing

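The count of channel genes called in homozygotes against wild type was 1 in the fit reported and also with DESeq2 size factors, a filter of 1 CPM, tissue scores as covariates (Scn4b in place of Cacng2) and only the genotypes compared (Scn4b in place of Cacng2). It was 0 with no filter, where Cacng2 had an adjusted p of 0.0517 (edgeR), 3 by DESeq2, Cacng2 among them, 0 without the libraries of ependymal score over 1, 0 without those of olfactory bulb score over 1, and 0 to 3 when each library was left out. The trend count, 1 in the fit reported, was 3 by DESeq2, 0 without the ependymal libraries, 0 without the olfactory bulb ones, and 0 to 2 when each library was left out. Of the partner genes, 2 were called in homozygotes in the fit reported and 0 to 3 under the alternatives. The counts for heterozygotes against wild type, homozygotes against heterozygotes and the midpoint were 0 under each alternative run.

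With a replicate block the homozygous count was 2 (Cacng2 and Cacnb1, the latter at -0.16, adjusted p = 0.0278 by edgeR) and the trend count 2, while Shisa6 lost its call (adjusted p = 0.0519). Replicate numbers showed no pairing: 1 of 18 correlations between same-numbered libraries was over 0.1 (range -0.104 to 0.139), and a library correlated best with its own number in 7 of 36 cases. Over all genes, calls in homozygotes numbered 261 in the fit reported, 387 with the replicate block, 397 with tissue scores, 639 by DESeq2 and 79 without the olfactory bulb libraries. That last fit held fewer homozygous libraries.

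Changes near 0 crossed it. Scn8a was at -0.0268 and Cacna1a at -0.02 with the replicate block, and Cacna1i at 0.0247 with tissue scores. Cacng7 was at 0.0016 with the 1 CPM filter, 0.0321 with tissue scores, 9e-04 with only the genotypes compared and 0.0174 without the ependymal libraries. Tissue scores as covariates moved Scn8a to 0.1126, Cacna1a to 0.0756, Cacna1d to 0.1367 and Cacna2d1 to 0.1124 (edgeR adjusted p = 0.0958 to 0.377), none of them called. With each library left out, the ranges were -0.0052 to 0.0439 for Scn8a, -0.0136 to 0.0305 for Cacna1a, -0.0357 to 0.0072 for Cacna1i and -0.0222 to 0.0375 for Cacng7. Of 607 single-gene values under alternatives, 530 kept direction and side of the threshold, 49 lost and 8 gained a call, and 20 changed sign. The cause was not tested. Counts of 5 to 108 per library limit Cacng6, Cacna1f, Cacna1s and Scn10a.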
